A study of Mus musculus with 2 samples.

Results

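Mir191 and Mir425 are 2 microRNA (miRNA) genes that lie side by side on mouse chromosome 9, at the locus of the protein-coding gene Dalrd3. They were followed in the embryonic facial prominence, the neural crest mesenchyme and covering epithelium that form the face and jaws. The members were chosen by gene symbol, not by their levels, though with earlier results of these data known. They are 2 of the 1973 rows in each table of read counts. Mir425 was read from the row of that name (ENSMUSG00000065579.1), on the gene's own strand. Mir191 was read from the row of Gm24083 (ENSMUSG00000092915.1), an entry drawn over the same bases on the reverse strand, so its reads are those counted opposite to Gm24083.

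The tissue came from embryos of the strain B6NCrl at embryonic day 12.5, of mixed sex and with no treatment named. Replicate 1 was made from a pool of 120 embryos and replicate 2 from a pool of 88, and the labels call them biological replicates. They form 1 group, so the comparisons concern levels within the tissue and the difference between these 2 libraries, with n = 2 throughout. Pooling hides the spread between embryos. Because whole tissue was sequenced, fewer cells that express a miRNA and less of it per cell cannot be told apart.

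A miRNA gene is transcribed as part of a longer RNA, from which a hairpin is cut and then trimmed to mature strands from its 5′ arm (5p) and 3′ arm (3p). A mature strand guides an Argonaute protein to messenger RNAs that pair with its seed, bases 2 to 8, and lowers their output. Both miR-191 and miR-425 are found in many tissues and are often used as references when other miRNAs are measured by PCR. miR-191 is known to act on Egr1, an early growth response transcription factor. Dalrd3 itself encodes a partner of a methyltransferase that modifies arginine tRNAs.

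The mature strands, from RefSeq on GRCm38.p6, are shown with the seed in capitals, since strands of the same seed can pair with the same sites. Whether the neighbours share targets was not tested.
miR-191-5p: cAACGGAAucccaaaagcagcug
miR-191-3p: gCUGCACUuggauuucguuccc
miR-425-5p: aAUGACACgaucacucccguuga
miR-425-3p: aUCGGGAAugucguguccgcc

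The 4 seeds all differ from each other, and the 5p strands, each 23 bases long, carry the same base at 5 positions when set side by side from the 5′ end without gaps. Among the 1738 mature mouse strands of the RefSeq table, 0 others had the seed of miR-191-5p, miR-191-3p or miR-425-3p. A seed held by a single gene is common there, at 84.5% of 1398 seeds. The seed of miR-425-5p was shared with 1 other strand, miR-489-3p. Its gene, Mir489, had 0 own-strand reads in replicate 1 and 3 in replicate 2, which is at most 0.506 CPM (reads per 1000000 reads on the own strand of miRNA genes) and no more than the limit set by a count of 0. Mir489 was thus not detected above that limit, while Mir425 had 10147 and 13831 reads in replicates 1 and 2.

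The precursor hairpins are shown with both mature strands in capitals, since a read of either arm adds to the gene's count and the arms were not counted apart.
Mir191 hairpin: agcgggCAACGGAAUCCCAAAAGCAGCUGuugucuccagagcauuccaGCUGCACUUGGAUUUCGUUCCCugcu
Mir425 hairpin: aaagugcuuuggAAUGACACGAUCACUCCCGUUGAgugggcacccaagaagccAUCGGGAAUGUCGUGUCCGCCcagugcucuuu

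The Mir191 hairpin lay at chr9:108568319-108568392 and the Mir425 hairpin at chr9:108568777-108568861, both on the plus strand of GRCm38 and 384 bases apart. Folded in silico with RNAfold, Mir191 had a minimum free energy of -35 kcal/mol over 74 bases and Mir425 one of -31.7 kcal/mol over 85 bases, each with 28 base pairs. Per 100 bases these are -47.3 and -37.3 kcal/mol, against a median of -40.6 over the 1005 mouse hairpins of the table, so Mir191 lay on the more stable side of the median and Mir425 on the less stable side. Neither hairpin shared a stretch of 20 bases with a miRNA gene at another place. None of the 4 mature sequences had an exact copy, on either strand, in a GENCODE transcript of another gene. Multi-mapping reads were assigned to no gene, and how far that lowered the members' counts was not tested, as no genome was searched.

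The Gm24083 entry, chr9:108568295-108568414 on the minus strand, is shown with the reverse complement of the Mir191 hairpin in capitals, since this overlap decides how Mir191 was counted.
Gm24083: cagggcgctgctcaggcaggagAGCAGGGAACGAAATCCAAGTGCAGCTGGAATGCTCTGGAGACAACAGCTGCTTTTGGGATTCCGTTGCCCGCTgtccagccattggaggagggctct

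The entry holds the whole Mir191 hairpin in reverse and runs 22 and 24 bases beyond its ends. Its own strand had 0 reads in each library, and such a count leaves room for a level of up to 0.636 CPM in replicate 1 and 0.506 in replicate 2 (3 reads, counting error only). Every read on it lay on the strand of Mir191. Mir425 showed the mirror image, with all reads on its own strand and 0 on the other.

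The annotations disagree on the host. In GENCODE M21 both hairpins lay within an exon of 4833445I07Rik-201, an unspliced transcript of a long noncoding RNA gene at chr9:108567533-108569174, and Mir191 also lay in an intron of the shorter 4833445I07Rik-202, which ends before Mir425. There Dalrd3 began 1024 bases after the end of Mir425, so neither hairpin was inside it. In RefSeq the Dalrd3 gene began at position 108567484, 49 bases before the GENCODE start of 4833445I07Rik, and spanned both hairpins. The single Dalrd3 promoter window of the RefSeq table, however, began 780 bases after the end of Mir425, so the start listed there also lay beyond the hairpins. Which of these transcripts gave the reads cannot be told from counts on the hairpins.

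**Figure D1:**
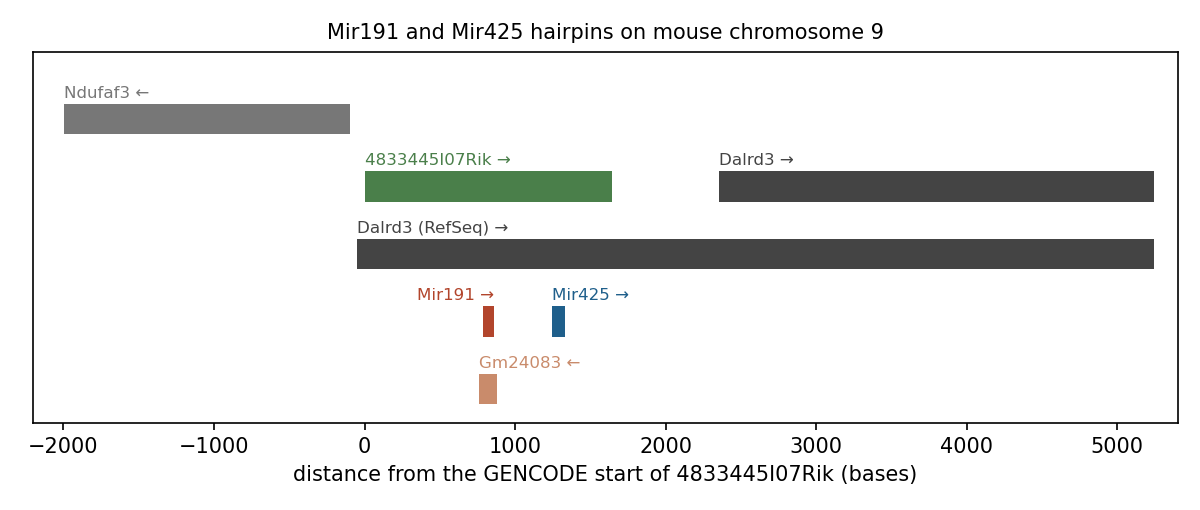
Map of the locus, with distance in bases from the GENCODE start of 4833445I07Rik on the horizontal axis and bars for genes (GENCODE M21 unless marked RefSeq; arrows give the direction of transcription). The Mir191 hairpin starts 786 bases and the Mir425 hairpin 1244 bases after that start, both inside 4833445I07Rik and RefSeq Dalrd3 and outside GENCODE Dalrd3, and Gm24083 lies over Mir191 in reverse.

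The host start faces that of Ndufaf3, a gene for an assembly factor of mitochondrial complex I, which is transcribed the other way from a start 98 bases away. The 300 bases around this gap (chr9:108567387-108567686, plus strand, the reverse complement of the RefSeq promoter window of Ndufaf3) are shown because 4833445I07Rik and the RefSeq Dalrd3 gene both begin here, with the GENCODE host transcript in capitals.
Window at the start of 4833445I07Rik: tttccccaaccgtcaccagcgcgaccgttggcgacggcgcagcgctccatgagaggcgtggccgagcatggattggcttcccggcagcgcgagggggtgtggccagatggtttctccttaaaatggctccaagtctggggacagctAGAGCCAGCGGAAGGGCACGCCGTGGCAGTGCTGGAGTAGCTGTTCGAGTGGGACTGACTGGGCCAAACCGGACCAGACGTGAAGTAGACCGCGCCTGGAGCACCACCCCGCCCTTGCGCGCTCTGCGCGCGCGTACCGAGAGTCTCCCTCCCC

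This window was 66% G and C, against a median of 52.7% over 32815 promoter windows of the same length in the table. It held 29 CG dinucleotides, against a median of 7, and 12.9% of the windows held at least as many. Searched on both strands, it held 1 match to the GC box GGGCGG, which 35.6% of all windows hold, and 1 to the CCAAT box CCAAT, which 37.4% hold. There was 1 match to TGACG, present in 20.8% of windows and contained in the longer TGACGTCA. No match was found to TATAAA (13.6% of windows), to TGACGTCA (1.79%) or to CACGTG (7.15%). These are matches of letters only, and the files hold no measurement of transcription from the window.

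Replicate 1 held 4719337 reads on the own strand of miRNA genes and replicate 2 held 5929220, the sums to which CPM were scaled. With at least 10 reads in both libraries, 411 strand features were kept, 395 genes on their own strand and 16 entries on the opposite strand, and both members passed. The tissue's own markers were present, with 6 of 6 listed genes of mesenchyme and cartilage (summed level 64669 and 64166 CPM in replicates 1 and 2) and 7 of 7 of epithelium (30805 and 35800 CPM). The endothelial marker Mir126a stood at 29030 and 27230 CPM. Marker lists of other tissues had lower sums, with 1081 and 1498 CPM for skeletal muscle and 435 and 444 CPM for leukocytes. The sums were 13.8 and 13.5 CPM for liver, 95.4 and 51.9 CPM for heart and 223 and 331 CPM for erythroid cells. The lists differ in length, so their sums do not rank the tissues. The neuron list summed to 795 and 785 CPM, with 1 of its 4 genes past the minimum and Mir124a-1, which has copies elsewhere, at 0.

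Mir191 and Mir425 were both well expressed in the facial prominence, and Mir191 gave more reads than Mir425. Mir191 had 14479 reads in replicate 1 and 18073 in replicate 2. Scaled to library size, its level was 3068 CPM in replicate 1 (exact 95% Clopper-Pearson interval 3018 to 3118) and 3048 CPM in replicate 2 (interval 3004 to 3093), or 3058 ± 14.1 CPM (SD, n = 2). The intervals cover counting error only, and no molecular identifiers were used here. They overlap from 3018 to 3093 CPM.

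Mir425 had 10147 reads in replicate 1 and 13831 in replicate 2. Its level was 2150 CPM (interval 2109 to 2192) and 2333 CPM (interval 2294 to 2372), or 2241 ± 129 CPM (SD, n = 2). Its intervals do not overlap, with replicate 2 the higher, and neither library's level reaches those of Mir191. Together the reads of the 2 genes came to 5299 ± 115 CPM (SD, n = 2). The own-strand sum behind these CPM does not itself hold the Mir191 reads, which lie on the opposite strand of their row.

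Among the 411 features, Mir191 ranked 66th and Mir425 76th by mean CPM, well above the median feature at 125 CPM. By library, Mir191 ranked 63rd and 66th, and Mir425 78th and 75th. The rank of a gene also depends on how well its mature strands are captured in library preparation, which was not tested, and genes with copies elsewhere may stand too low.

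The genes closest to each member in level were found by the distance of their log2(CPM + 1) over the 2 libraries, which is a likeness over 2 points only. For Mir191 these were Mir532 (2994 and 2875 CPM in replicates 1 and 2, distance 0.0912), Mir125b-1 (2887 and 2908 CPM, distance 0.111) and Mir181b-2 (2893 and 3414 CPM, distance 0.184). Mir181b-2 stood directly above Mir191 in rank, and its 2 libraries lay on either side of the Mir191 values, so these neighbours did not differ beyond their spread. Mir532, directly below, was lower than Mir191 in each library.

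For Mir425 the closest genes were Mir301 (2224 and 2181 CPM, distance 0.109), Mir181a-1 (2166 and 2148 CPM, distance 0.119) and Mir98 (2471 and 2426 CPM, distance 0.209), a member of the let-7 family. Mir301, directly below it in rank, and Gm25252 read on its opposite strand, directly above it (2095 and 2579 CPM), both had values that overlap those of Mir425. Mir98 was above Mir425 in both libraries.

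**Figure D2:**
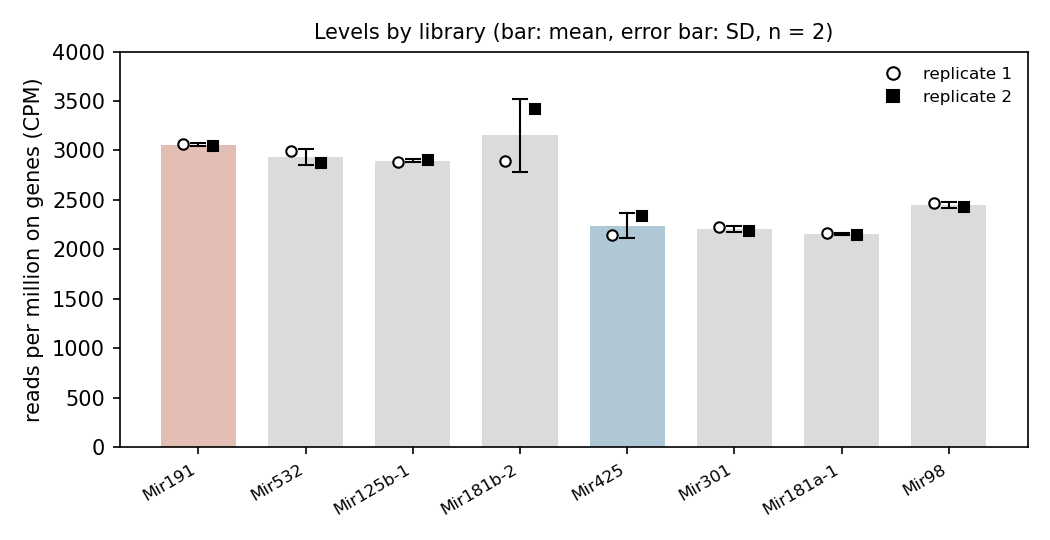
Level in CPM (vertical axis, from 0) of Mir191, Mir425 and the 3 genes nearest to each; bars are means, error bars the SD over 2 libraries, open circles replicate 1 and filled squares replicate 2. The points of Mir191 nearly coincide at 3068 and 3048 CPM, those of Mir425 lie apart at 2150 and 2333 CPM, and the widest gap is that of Mir181b-2.

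Because both counts come from the same library, their ratio needs no scaling. Mir191 gave 1.43 reads for each read of Mir425 in replicate 1 (exact interval 1.39 to 1.46) and 1.31 in replicate 2 (interval 1.28 to 1.34), or 1.37 ± 0.085 (SD, n = 2). Mir191 gave more reads in both libraries, beyond counting error in each. The ratio also depends on how well each gene's mature strands are captured in library preparation, which was not tested. The mature 5p strands are of the same length, and each read is a short RNA of under 30 bases by the labels, so reads were not divided by gene length. The ratio was lower in replicate 2, with a log2 change of -0.13 (exact interval -0.18 to -0.08; two-sided Fisher's exact test, p = 3.00e-07, odds ratio 0.916). That test compares these 2 libraries, not conditions, and covers counting error only.

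The fold between Mir191 and Mir425 was small beside that of other neighbouring miRNA genes. Within 1 kb on the same strand, 114 pairs of genes with at least 10 reads were found, and the members' pair had the 13th smallest fold. The median fold was 5.99, 28 pairs lay under 2-fold and 42 over 10-fold. The smallest folds were those of Mir363 and Mir20b (1.01), of the let-7e reads opposite Gm25927 and Mir125a (1.02) and of Mir181d and Mir181c (1.02). The largest were those of Mir17 and Mir19b-1 (1923), Mir99a and Mirlet7c-1 (613) and Mir20a and Mir19b-1 (606), and all 3 of these pairs include a gene that shares a stretch of 20 bases with a copy elsewhere, whose reads may be lost. Over the 67 pairs in which neither gene shares such a stretch, the median fold was 4.99.

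Between the libraries the members' fold moved less than that of most pairs. Its absolute log2 change of 0.13 was the 34th smallest of the 114, against a median of 0.24, and 108 pairs kept the same order in both libraries. Pairs in 1 cluster share genes and are not independent, so these places are a description.

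**Figure D3:**
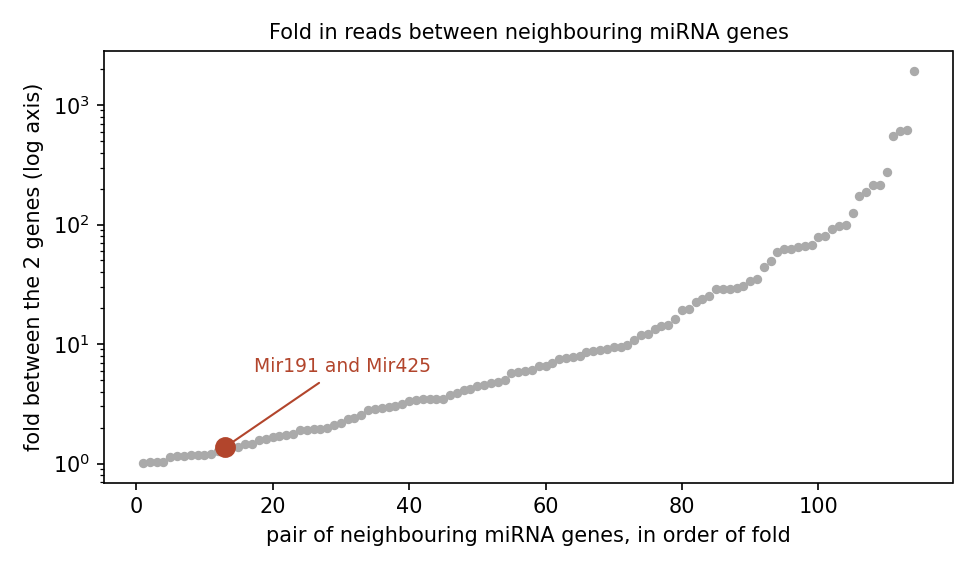
Fold in reads between the 2 genes of each of 114 neighbouring pairs (vertical log axis), in order of size (horizontal axis), with 1 point per pair and the Mir191 and Mir425 pair in red. The red point is 13th from the left at 1.37-fold, while the largest pair reaches 1923-fold.

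Between the 2 pools of embryos, Mir191 had nearly the same level and Mir425 a slightly higher one in replicate 2. For Mir191 the log2 ratio of replicate 2 over replicate 1, on library sizes scaled by the trimmed mean of M values (TMM), was -0.01 (exact interval -0.05 to 0.02; exact binomial adjusted p = 0.495). For Mir425 the log2 ratio was 0.11 (interval 0.08 to 0.15; exact binomial adjusted p = 8.46e-09), a 1.08-fold difference. These intervals and tests compare the 2 libraries and cover counting error only, not the spread between pools.

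A feature was called different at an adjusted p of 0.05 or less together with a difference of 2-fold or more (1 on the log2 scale). Neither member was called, and of the 411 features 16 were (3.89%). With no limit on size, Mir425 passed and Mir191 did not, against 212 of the 411 features (51.6%), so passing that limit is common here. The median absolute log2 ratio of all features was 0.22, and Mir191 had the 24th and Mir425 the 122nd smallest. The common biological coefficient of variation over the features, fitted by edgeR to these same libraries, was 0.186. With the coefficient fixed at 0.2, edgeR's exact test gave an adjusted p of 1 for both members and called 2 features in all.

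**Figure D4:**
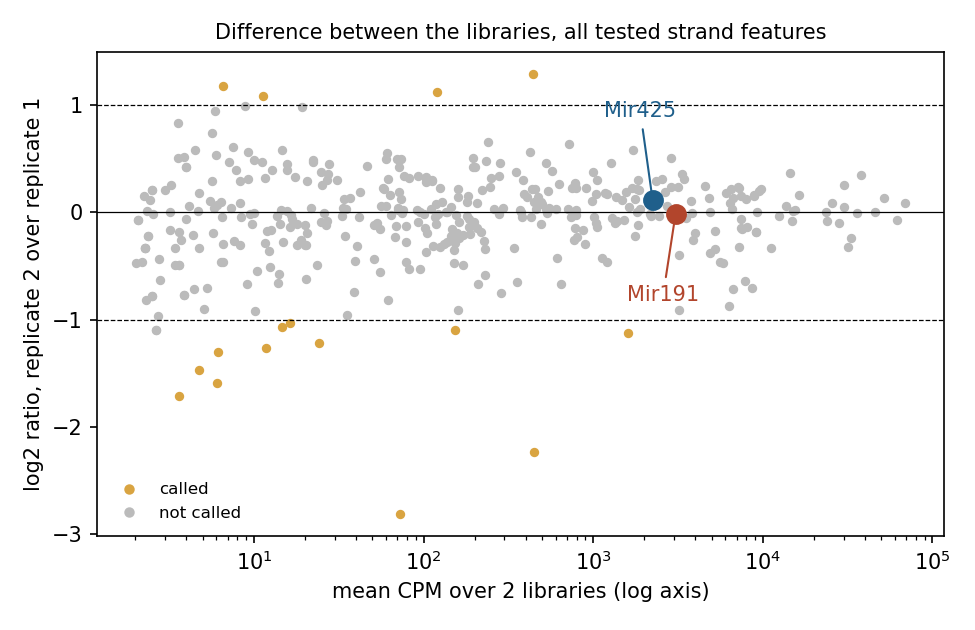
Mean CPM (horizontal log axis) against the log2 ratio of replicate 2 over replicate 1 (vertical axis) for 411 strand features; dashed lines mark 2-fold, and yellow points are the 16 called features. Mir191 lies at -0.01 and Mir425 at 0.11, both inside the band of uncalled features.

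The members' use as references in PCR gives a list to set them beside, that of 26 miRNA genes often chosen for this purpose. Of these, 25 were read and all 25 passed the minimum. Mir24-1 has no row of its own and was left out. Reads opposite Mir3074-1, which lies over Mir24-1, were not used for it, unlike those opposite Gm24083 for Mir191. They numbered 426 and 544 in replicates 1 and 2, with a log2 ratio of 0.018. The values below are for the 25 genes. The list's median absolute log2 ratio was 0.19, against 0.22 over all features, and 0 of its genes were called at the 2-fold limit, against 3.89% of all features. The list also stood higher, at a median of 784 CPM against 125 CPM over all features, so this comparison is not matched for level. With a minimum of 100 counts, 6 of 288 features were called. With no limit on size 17 of the 25 passed the test, of which 13 had more in replicate 2 and 4 more in replicate 1. Of all features 51.6% passed it, 112 with more in replicate 2 and 100 with more in replicate 1. Mir191 had the third smallest and Mir425 the 11th smallest absolute ratio of the list.

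By level the list ran from Mir26b, at 24699 and 26388 CPM in replicates 1 and 2, to Mir103-1, at 5.72 and 5.90 CPM, with Mir191 8th and Mir425 9th. Of its 25 genes, 11 share a stretch of 20 bases with another miRNA gene, among them Mir103-1, so their order by level is uncertain. The widest difference was that of Mir423, another frequent reference, with 8162 CPM in replicate 1 against 4478 in replicate 2, a log2 ratio of -0.87. Mir103-2 came next, at 72.7 and 91.1 CPM (log2 ratio 0.32). Mir423 was the gene of the list nearest to the 2-fold limit.

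**Figure D5:**
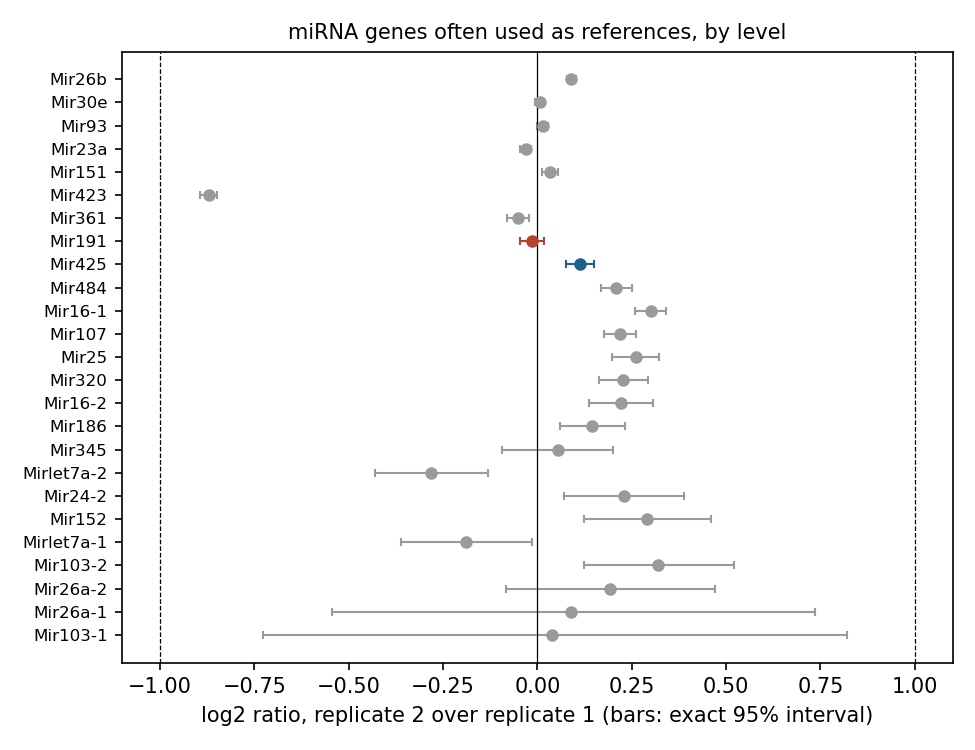
Log2 ratio of replicate 2 over replicate 1 (horizontal axis) for the 25 reference genes in order of level from the top, with points for the ratio and bars for the exact 95% interval (counting error only); dashed lines mark 2-fold. Mir191 (red) lies on 0, Mir425 (blue) at 0.11, and Mir423 alone lies near the lower dashed line.

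Reading on the opposite strand was not peculiar to Mir191. At 16 entries at least 10 opposite-strand reads were counted in both libraries, 10 of them with more reads there than on their own strand, and 9 of those 10 lie over a RefSeq miRNA of that strand. Gm24083 was 4th by reads, with 9.17% and 8.95% of all opposite-strand reads in replicates 1 and 2. Ahead of it were Gm24321 over Mir409 (45795 and 50707 reads), Gm25927 over Mirlet7e (35917 and 43250 reads) and Gm25301 (31014 and 46196 reads). Gm25252 over Mir376a followed, with 9889 and 15292 reads. All 5 had 0 reads on their own strand, so a reading of own-strand counts alone lists them, Mir191 included, at 0.

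No other expressed miRNA gene was counted near the pair. Within 1 Mb of Mir425 the tables hold 6 miRNA entries, and the other 4 had few or no reads. Mir7088 and Gm26298 had 0 reads in both libraries, Gm23156 had 0 in replicate 1 and 1 in replicate 2, and Mir711 had 3 and 0. The 2 members gave all but 4 of the reads on miRNA entries in this stretch of chromosome 9.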

How the data were processed

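Small RNA was sequenced from 2 pools of facial prominence tissue. The deposited tables give raw counts of reads for each miRNA gene in each library. Per the file headers, they derive from mm10 alignments and the GENCODE M4 gene set. The aligner and counter are not given in the sources used here. The own strand was taken as the column with 96.8% and 96.7% of gene reads. Unmapped reads (25.7% and 19.4%), reads with several places (26.0% and 27.9%) and reads outside genes (5.57% and 4.72%) were left out of library sizes.

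Positions and names come from GENCODE M21 on GRCm38 (1894 of 1973 rows matched), miRNA and promoter sequences from RefSeq GRCm38.p6. CPM are counts per 1000000 own-strand reads. All features with at least 10 counts in both libraries were tested by a two-sided exact binomial test (scipy 1.17.1) on TMM library sizes (edgeR 4.0.16, R 4.3.3), with Benjamini-Hochberg adjustment. A quasi-likelihood fit was not possible with 1 library against 1. Tested on counts simulated for this comparison over 411 features with counting error alone, 98.5% of 200 features changed 3-fold were recovered. RNAfold was version 2.7.2. Alternatives were other library sizes (including DESeq2 1.42.0 size factors), count minimums and a fixed coefficient of variation.

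The named genes were the members, the 3 nearest in level and the neighbours in rank, genes that share a seed, entries within 1 Mb, the ends of the reference list and of the ranked pairs, and the 5 largest opposite-strand entries. Members and lists were chosen with earlier results of these data known.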

Additional observations from a re-analysis of the deposited data

How the results depend on the processing

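Neither member was called at the 2-fold limit under any of the 5 alternatives to the between-library test (own-strand library sizes, DESeq2 size factors, a minimum of 100 counts, no count filter, edgeR's exact test), where the log2 ratio of Mir425 stayed between 0.11 and 0.12 and that of Mir191 at -0.01. The adjusted p of Mir191 ran from 0.441 to 1 and that of Mir425 from 1.57e-09 to 1, with 1 in each case from edgeR's exact test. The count of called features was 16, but 6 with a minimum of 100 counts, where 288 features were tested, 24 of 878 with no count filter, and 2 with the coefficient fixed at 0.2. With reads of both strands as the library size, Mir191 stood at 2958 CPM in place of 3058 and Mir425 at 2168 in place of 2241. Leaving out a library gave ratios of Mir191 to Mir425 from 1.31 to 1.43. The reference list's median absolute log2 ratio of 0.19 was 0.18 with own-strand library sizes and 0.10 over members that share no stretch of 20 bases. The median absolute log2 fold of neighbouring pairs was 2.58, with 2.24 at a minimum of 100 counts and 2.72 within 10 kb. With 2 libraries the spread between pools is poorly known, and depth limits the lowest genes of the reference list more than the members.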
